A study of Homo sapiens with 10 samples.

Results

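Of the 54860 gene-targeting sgRNAs counted in a CRISPR knockout screen of 22Rv1 cells, 1904 (3.47%) were abundant at the start in both versions of the line. They were chosen by a level of at least 40 CPM in both T0 libraries, where CPM is the count divided by the column total and multiplied by 1000000. They name 1845 genes of the 18686 in the table, 1786 with 1 such sgRNA, 59 with 2 and 0 with 3. The same rule applied to the 989 non-targeting sgRNAs, which match no human gene by design, took 31 of them (3.13%). Since T0 values chose these sgRNAs, their T0 levels and every change from T0 are given as descriptions with no test.

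22Rv1 is a human prostate cancer cell line. The NMYC-overexpressing arm has 5 libraries, a single one from T0 and duplicates from T6 and T12, and the arm of unmodified parental cells has as many. The labels describe infection at a multiplicity of 0.3 with a lentiviral sgRNA library, puromycin selection, and duplicate cultures carried on for 12 generations. The labels do not say how NMYC was expressed, or in which unit T6 and T12 are counted. As the labels put it, duplicates were plated after infection and selection, and T0 replicates were collected, of which 1 library per arm is used here. They do not state outright that the duplicates of an arm share an infection. If they do, p-values measure only spread that arose after infection, which may be technical.

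In a pooled knockout screen each cell carries an sgRNA that directs Cas9 to cut a gene, and the integrated sgRNA is later counted as a barcode of that cell's descendants. An sgRNA against a gene needed for growth becomes rarer with time, and one against a gene that restrains growth becomes more common. An sgRNA carried by many cells at the start is less exposed to losses from sampling at each passage than an sgRNA carried by few. The ribosome, the proteasome, the spliceosome and the machinery of DNA replication and transcription are needed by dividing cells of nearly every type, whereas odorant and taste receptor genes are silent in most tissues outside the sense organs.

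Total counts ran from 8783512 to 18398571 per library. The median member had between 1089.5 and 1307.5 counts in the T0 libraries and between 206 and 560.5 in the later ones. Counting intervals and limits given here cover counting error only, since reads of PCR products are not independent molecules.

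The chosen sgRNAs made up 7.49% to 7.98% of all counts in each of the 8 later libraries, against 15.8% in the NMYC T0 library and 15.5% in the parental T0 library. Their combined share was therefore nearly the same in every T6 and T12 library of both arms. The median member of the NMYC arm stood at 70.5 CPM at T0, at 34.5 and 35.0 CPM at T6 and at 32.8 and 27.9 CPM at T12. For the parental arm the medians were 71.1 CPM at T0, 34.8 and 23.5 CPM at T6 and 33.9 and 32.1 CPM at T12. The second parental T6 library, which was also the one with the fewest counts, had the lowest median of the 8.

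On the scale of log2(CPM + 1), the median change from T0 was -1.16 ± 0.0213 at T6 and -1.37 ± 0.162 at T12 in NMYC cultures (SD of the library medians, n = 2). In parental cultures it was -1.37 ± 0.371 at T6 and -1.27 ± 0.0305 at T12 (SD, n = 2). All 8 library medians were negative, and most of the fall was already present at T6 in both arms. With library sizes adjusted by TMM (trimmed mean of M values), NMYC cultures had -1.80 at T6 and -1.62 at T12, so the order of these times turned, and parental cultures -1.89 and -1.64. The 31 non-targeting sgRNAs under the same rule had library medians between -1.81 and -0.91, a range that holds all 8 medians of the members, -1.63 to -1.11. The median of all gene-targeting sgRNAs lay between -0.16 and 0.84 in the same libraries. Per library, the members' median minus that of these non-targeting sgRNAs lay between -0.73 and 0.56, so it had no constant sign.

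Falls of at least 4-fold from T0, with 1 CPM added to each level, were seen for 24.1% to 42.9% of the members in the later libraries. Over all gene-targeting sgRNAs the share with such a fall was 9.63% and 11.0% at T6 and 15.6% and 20.6% at T12 in NMYC cultures, and 9.4% and 18.7% at T6 and 18.7% and 16.5% at T12 in parental cultures. Since the rule used these T0 values, nothing is read from that gap. Among the 31 non-targeting sgRNAs it was 22.6% to 45.2%. Between 14.1% and 20.1% of the members stood above their own T0 level in a later library. Over all gene-targeting sgRNAs this share was 44.8% to 64.5%, and among the 31 non-targeting sgRNAs 12.9% to 25.8%. From this gap, too, nothing is read, since T0 values chose the members.

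Abundance in both T0 libraries went with a higher level later, in all 8 later libraries. The median of the members was 2.76 to 5.55 times that of all gene-targeting sgRNAs in NMYC libraries and 2.65 to 5.29 times in parental libraries. The 31 non-targeting sgRNAs stood at 2.53 to 3.98 times that median in NMYC libraries and 2.11 to 7.96 times in parental ones. At least 40 CPM was reached by 35.1% to 43.3% of the members in a later library, against 10.6% to 16.8% of all gene-targeting sgRNAs. Under 5 CPM were 3.41% to 18.9% of the members, against 25.4% to 49.99% of all gene-targeting sgRNAs.

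For sgRNAs abundant at T0 in only one arm the later excess was smaller, and of similar size in both arms. A set of 3125 gene-targeting sgRNAs had at least 40 CPM in the NMYC T0 library and under 10 CPM in the parental one. Their later medians were 1.32 to 1.76 times that of all gene-targeting sgRNAs in NMYC libraries and 1.31 to 1.75 times in parental libraries. The 3194 sgRNAs abundant only in the parental T0 library stood at 1.19 to 1.34 times in later NMYC libraries and 1.16 to 1.30 times in later parental ones. The ranges of the arms overlapped nearly in full for each set, a comparison given as values and not tested. These sets had medians of 17.1 and 14.9 CPM in the first NMYC T6 library, and of 17.2 and 15.2 CPM in the first parental T6 library.

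Among the members themselves, the exact T0 level said little about the later level. Spearman correlations over the 1904 sgRNAs between the NMYC T0 library and later libraries ran from 0.0843 to 0.113 in NMYC and from 0.0546 to 0.104 in parental cultures. For the parental T0 library they ran from 0.0965 to 0.155 in NMYC and from 0.0920 to 0.158 in parental cultures. These are descriptions over sgRNAs that share libraries, and the choice of members narrows the range of T0 values. The 680 members whose lower T0 value was between 40 and 50 CPM had later medians of 20.7 to 32.2 CPM. The 120 members with at least 100 CPM in both T0 libraries had later medians of 34.4 to 48.4 CPM, and between 1.67% and 14.2% of them were under 5 CPM.

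Replicate cultures differed widely in which members they kept. With 1 CPM added to each level, the median member differed between the cultures by 1.61-fold at T6 and 2.31-fold at T12 in NMYC cells. In parental cells it differed by 2.27-fold at T6 and 2.37-fold at T12. Over all gene-targeting sgRNAs these values were 2.02, 2.64, 2.72 and 2.78. Of the 1904 members, 532 (27.9%) in NMYC and 600 (31.5%) in parental cells differed by more than 4-fold between the T12 cultures. Over all gene-targeting sgRNAs these shares were larger, 36.0% and 38.6%. Spearman correlations between libraries over the members were between 0.321 and 0.554 (median 0.406) for the 4 replicate pairs. For the 16 pairs that join an NMYC to a parental library they were between 0.283 and 0.552 (median 0.398), nearly the same range.

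Part of the members low in one culture were low in the other, and the same shares are given for all gene-targeting sgRNAs, more of which were low (the difference was not tested). At NMYC T12, 185 members were under 5 CPM in the first culture and 359 in the second, and 83 were low in both, 44.9% of the first list and 23.1% of the second, against 69.8% and 53.1% for all gene-targeting sgRNAs. At parental T12 the lists held 301 and 246 members, with 86 in both, 28.6% and 35.0% of them, against 59.0% and 61.9% for all gene-targeting sgRNAs. At NMYC T6, 26 members were low in both cultures, 33.3% of 78 and 24.1% of 108, against 55.2% and 53.5% for all gene-targeting sgRNAs. At parental T6 there were 39, 60% of 65 and 13.7% of 285, against 73.8% and 39.6%.

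Most members were never lost. Of the 1904, 1099 (57.7%) stayed at or above 5 CPM in all 8 later libraries, against 16.5% of all gene-targeting sgRNAs. Of the 31 non-targeting sgRNAs under the same rule, 17 (54.8%) did so, a share near that of the members. A further 392 members (20.6%) were under 5 CPM in 1 library only, against 15.5% of all gene-targeting sgRNAs. In at least 4 libraries 114 members (5.99%) were under 5 CPM, against 40.7% of all gene-targeting sgRNAs and 2 of the 31 non-targeting ones (6.45%). At least 40 CPM in all 8 later libraries was held by 90 members (4.73%) and by 0.381% of all gene-targeting sgRNAs. The 90 are 43.1% of the 209 gene-targeting sgRNAs that did so. That level was also held by 2 of the 31 non-targeting sgRNAs (6.45%). Only 3 members (0.158%) were under 5 CPM in all 8, against 2562 of all gene-targeting sgRNAs (4.67%) and 0 of the 31 non-targeting ones.

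The sgRNAs with the highest T0 levels, by the geometric mean of both libraries, were against ZNF23, PAN3, KIAA0922, ELANE and TMEM236. The one against ZNF23, a zinc finger protein, had 184 CPM at T0, 119 and 87.2 CPM at T6, and 143 and 53.9 CPM at T12 in NMYC cultures. The parental values were 279 CPM at T0, 111 and 32.4 CPM at T6, and 60.02 and 19.4 CPM at T12. It was thus below T0 in all 8 later libraries and under 40 CPM in 2 of them, both parental. The PAN3 sgRNA, against a subunit of a complex that shortens the poly(A) tails of mRNAs, had 244 CPM at T0, 44.7 and 15.9 CPM at T6, and 42.6 and 15.9 CPM at T12 in NMYC cultures. The parental levels were 191 CPM at T0, 24.5 and 21.2 CPM at T6, and 3.63 and 81.6 CPM at T12. Its parental T12 cultures lay on opposite sides of its other later values. The ELANE sgRNA, against neutrophil elastase, an enzyme of granulocytes, stayed between 49.0 and 159 CPM in all later libraries, from T0 levels of 162 CPM in NMYC and 231 CPM in parental cells. The KIAA0922 sgRNA ranged from 24.9 to 112 CPM later, and the TMEM236 sgRNA from 44.5 to 123 CPM.

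The threshold itself separated similar sgRNAs. Just inside it, with 40.003 CPM in the parental T0 library, were sgRNAs against CSRNP2, EFCAB14 and SFXN3, and just outside, with 39.99 CPM in the NMYC or 39.949 CPM in the parental T0 library, those against NPAS3, DBT and FETUB. The median over the 8 later libraries was 4.03, 18.9 and 12.8 CPM for the 3 inside and 43.8, 68.3 and 5.40 CPM for the 3 outside.

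The 8 members that fell furthest in all later libraries, ranked by their highest later level, were against IARS2, CDC25A, CHST3, BSN, MRPL15, ASB2, GPX8 and CCDC134. IARS2 is the mitochondrial isoleucyl-tRNA synthetase. Its member sgRNA had 94.0 CPM at T0, 0 and 0.21 CPM at T6, and 3.03 and 0 CPM at T12 in NMYC cultures, and 62.6 CPM at T0, 0.0775 and 0 CPM at T6, and 0 and 1.89 CPM at T12 in parental cultures. The highest of its 8 later values was 3.03 CPM. CDC25A is a phosphatase that activates cyclin-dependent kinases at the entry into S phase. Its member sgRNA went below detection in 3 of 4 later NMYC libraries, with 1.67 CPM in the other and 54.3 CPM at T0. Parental cultures showed 60.9 CPM at T0, 1.63 and 0 CPM at T6, and 4.41 and 0 CPM at T12. A value of 0 allows up to 3 counts in such a library.

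Other sgRNAs against these genes were often higher. The remaining IARS2 sgRNAs had later medians of 8.88 and 39.6 CPM, and the remaining CDC25A sgRNAs 12.1 and 15.1 CPM. MRPL15, a protein of the large mitochondrial ribosomal subunit, had a pair of members: one lay between 0 and 7.23 CPM in all later libraries and the other between 11.3 and 70.3 CPM. BSN encodes the presynaptic protein Bassoon and CHST3 a chondroitin sulfotransferase. Their member sgRNAs reached at most 6.74 and 4.93 CPM later, while the other BSN sgRNAs had later medians of 47.9 and 5.80 CPM and the other CHST3 sgRNAs 0.965 and 20.9 CPM. GPX8, a relative of the glutathione peroxidases in the endoplasmic reticulum, had other sgRNAs at 22.5 and 1.77 CPM, and those against CCDC134 stood at 29.3 and 12.3 CPM. For ASB2, whose protein selects substrates for a ubiquitin ligase, the other medians were 2.00 and 0.0335 CPM, and both sgRNAs had been under 1 CPM in both T0 libraries.

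The 8 members with the highest floor over the later libraries were against GALNT5, ASIC1, C11orf88, ATP5G3, SURF2, SNX13, PDE4D and POMT2. The GALNT5 sgRNA, against an enzyme that starts O-linked glycosylation, had 158 CPM at T0, 121 and 152 CPM at T6, and 156 and 174 CPM at T12 in NMYC cultures. In parental cultures it had 195 CPM at T0, 131 and 493 CPM at T6, and 120 and 109 CPM at T12. The second parental T6 library was far above the other 7. The ATP5G3 sgRNA, against the ring subunit of mitochondrial ATP synthase, had 80.1 CPM at T0, 137 and 220 CPM at T6, and 80.7 and 331 CPM at T12 in NMYC cultures. The parental levels were 151 CPM at T0, 236 and 383 CPM at T6, and 211 and 176 CPM at T12. It was above T0 in all 8 later libraries, one of 2 members (0.105%) of which this held. Over all gene-targeting sgRNAs this held for 3679 (6.71%), and among the non-targeting sgRNAs under the same rule for 1 (3.23%). Since T0 values chose the members, nothing is read from these shares. The other sgRNAs against ATP5G3 had later medians of 3.07 and 17.2 CPM. The ASIC1 sgRNA, against an acid-sensing ion channel, ranged from 102 to 218 CPM later, and the other 2 against that gene had later medians of 8.70 and 5.86 CPM. PDE4D breaks down cyclic AMP, POMT2 adds mannose to proteins and SNX13 is a sorting nexin: the lowest later level of their member sgRNAs was 78.7, 77.1 and 79.0 CPM.

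For the 59 genes with 2 members, the paired sgRNAs, which share a target, were compared by the median of their 8 later levels. With 1 CPM added to each, this median differed by at most 2-fold for 30 genes, and the middle difference was 1.95-fold. Both sgRNAs had a median of at least 20 CPM for 28 genes, both were under it for 6, and 25 genes were split. Of all members, 72.4% had a median of at least 20 CPM. The SF3B4 pair, against a component of the splicing factor SF3b, had medians of 14.4 and 41.2 CPM and the RPL34 pair, against a ribosomal protein, 9.71 and 39.4 CPM. The pairs against AMT, part of the glycine cleavage system, and MRPL15 were the widest apart, at 1.82 and 61.8 CPM and at 1.09 and 40.4 CPM.

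Of 1202 sgRNAs in the table against genes of 7 core lists, 38 (3.16%) were members, a share close to the 3.47% over all gene-targeting sgRNAs. These lists cover translation (ribosomal proteins and tRNA synthetases), the proteasome, splicing, transcription by RNA polymerase II, the copying of DNA, and mitosis. The median of the 38 was below that of all members in 8 of 8 later libraries, and below that of the 31 non-targeting sgRNAs in 6 of 8. In NMYC cultures it was 20.7 and 20.9 CPM at T6 and 21.1 and 22.9 CPM at T12. The parental medians were 27.9 and 19.0 CPM at T6 and 20.2 and 7.03 CPM at T12. The second parental T12 library gave the lowest value, and without it the change from T0 at parental T12 was -2.27 on the log2 scale, against -2.60 ± 0.477 with both (SD, n = 2).

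A median of under 20 CPM over the later libraries was found for 17 of the 38 core-list members (44.7%) and 525 of all 1904 (27.6%). Among the 31 non-targeting sgRNAs 11 had such a median (35.5%). So did 22 (29.7%) of the 74 members of receptor and structural gene families listed as unexpressed, though expression was not measured here. The 74 are 4.76% of the 1556 sgRNAs of these families, which include odorant and bitter taste receptors and keratin-associated proteins. The median of the 74 was above that of all members in 7 of 8 later libraries. These shares are descriptions, and the members of a list share its choice of genes.

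By list, splicing had 12 members (4.58% of its 262 sgRNAs), the proteasome 8 (8.08% of 99) and transcription 7 (3.29% of 213). Ribosomal proteins had 6 (2.67% of 225), mitosis 3 (1.56% of 192), replication 2 (1.41% of 142) and the tRNA synthetases 0 of 69. The share over all gene-targeting sgRNAs was 3.47%, and the differences from it were not tested. Under 20 CPM in the later median were 7 of the 12 spliceosome members, 4 of the 7 transcription members, 3 of the 6 ribosomal ones, 2 of the 8 proteasome ones, 1 of the 2 replication ones and 0 of the 3 mitotic ones.

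Core-list members with low later medians included those against MED22 and PSMB4. MED22 is a subunit of Mediator, which links transcription factors to RNA polymerase II. Its sgRNA had 40.1 CPM at T0, 1.14 and 2.31 CPM at T6, and 0.227 and 2.94 CPM at T12 in NMYC cultures, and 45.3 CPM at T0, 7.28 and 5.24 CPM at T6, and 43.3 and 0.355 CPM at T12 in parental cultures. It stood at 7.28 CPM or less in 7 of the 8 later libraries, and the first parental T12 culture stood apart at nearly the T0 level. The PSMB4 sgRNA, against a subunit of the proteasome core, had 1.87 and 0.315 CPM at T6 and 12.6 and 4.11 CPM at T12 in NMYC cultures, and 22.9 and 24.0 CPM at T6 and 0.181 and 3.19 CPM at T12 in parental cultures.

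Genes that restrain growth had 4 members (2.92% of their 137 sgRNAs), against NF2, LATS1, LATS2 and CASP8. NF2 (merlin) and the kinases LATS1 and LATS2 act in the Hippo pathway, and CASP8 starts cell death downstream of death receptors. The CASP8 sgRNA had 112 and 80.5 CPM at T6 and 80.9 and 164 CPM at T12 in NMYC cultures, from 130 CPM at T0. In parental cultures it had 132 and 143 CPM at T6 and 18.4 and 93.8 CPM at T12, from 76.3 CPM at T0. It was above T0 in 1 of 4 NMYC and 3 of 4 parental libraries, and the other CASP8 sgRNAs had later medians of 1.51 and 0.0296 CPM. The LATS2 sgRNA ranged from 23.2 to 86.2 CPM, the LATS1 sgRNA from 10.7 to 95.9 CPM and the NF2 sgRNA from 1.15 to 32.0 CPM in the later libraries.

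No member was directed against AURKA, EZH2, FOXA1, GRHL1, HOXB13, MAX, MYC, MYCN, NEUROG2 or RB1. Of the 73 sgRNAs on the list of the MYC and MAX network, 0 were members. The luminal list had 1 member (1.67% of its 60 sgRNAs), against ESRP2, and the neural list 3 (3.61% of 83), against ASCL2, PEG10 and HES1. ASCL2, a transcription factor of the achaete-scute family, had 1 member: 1.87 and 6.92 CPM at T6 and 0.303 and 25.5 CPM at T12 in NMYC cultures, from 74.7 CPM at T0. The parental levels were 8.52 and 8.54 CPM at T6 and 19.6 and 0.296 CPM at T12, from 58.0 CPM at T0. The T12 cultures of each arm lay on either side of 10 CPM. The ESRP2 sgRNA, against an epithelial splicing regulator, ranged from 3.49 to 53.8 CPM later, and the PEG10 sgRNA, against a protein derived from a retrotransposon, from 4.17 to 80.9 CPM.

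Of the families listed as unexpressed, the members with the lowest later medians were against the odorant receptors OR8H2, OR4L1 and OR13A1, at 0.329, 5.72 and 7.75 CPM. The OR8H2 sgRNA had 112 CPM at T0, 0.0669 and 4.93 CPM at T6, and 0 and 0 CPM at T12 in NMYC cultures. Parental cultures showed 44.1 CPM at T0, 1.47 and 0.114 CPM at T6, and 0.544 and 12.0 CPM at T12. Its later median was lower than that of the MED22 and PSMB4 sgRNAs, and the other OR8H2 sgRNAs had later medians of 14.1 and 3.88 CPM.

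The later libraries were not used in the choice, so the differences among them were tested for each sgRNA with edgeR's quasi-likelihood test over the 52635 sgRNAs with a mean of at least 20 counts in these 8 libraries. Of the members 1901 entered, and 3 did not. By the edgeR test with Benjamini-Hochberg adjustment at 0.05, 0 members passed in any of the 5 contrasts. Over all sgRNAs 0.0% passed in 4 contrasts, and 2 sgRNAs (0.0038%), neither of them a member, in the difference between the arms' T12 against T6 changes. In data simulated from these libraries for NMYC T12 against T6, the test called 4% of the 16-fold rises, 2% of the 16-fold falls and 0% of the 4-fold changes. An absence of calls therefore says little about changes of that size.

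In NMYC cells, 20 members were lower and 14 higher at T12 than at T6 at an unadjusted p under 0.05, 1.79% of those tested against 4.49% of all sgRNAs, and DESeq2 called 1 lower and 0 higher (0.652% of all sgRNAs). The fitted log2 change of the median member was 0.26, and 0.12 for all sgRNAs. The smallest p on the higher side belonged to HEATR5B and SH2B2, and on the lower side to MSC and SCAF4, all with an edgeR adjusted p of 1. The sgRNA against HEATR5B had 144 and 108 CPM at T12 and 35.1 and 11.2 CPM at T6 in NMYC cultures. That against SH2B2, an adaptor of the insulin receptor, had 128 and 56.2 CPM at T12 and 18.5 and 16.4 CPM at T6. In both cases the T12 cultures lay above the T6 cultures. The SCAF4 sgRNA, against a protein that binds the tail of RNA polymerase II, had 7.50 and 1.53 CPM at T12 and 37.4 and 67.9 CPM at T6. Of these 4, DESeq2 called MSC (adjusted p = 0.00808).

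In parental cells, 40 members were lower and 24 higher at T12 than at T6 at an unadjusted p under 0.05, 3.37% against 6.48% of all sgRNAs. DESeq2 called 7 lower and 5 higher, where it called 2.07% of all sgRNAs. The fitted change of the median member was 0.22, and 0.06 for all sgRNAs. The sgRNA with the smallest p was against RGS21, a regulator of G protein signalling. It had 1.45 and 4.49 CPM at T12 and 25.9 and 208 CPM at T6 in parental cultures (fitted log2 change -5.48, edgeR adjusted p = 0.182). Without the first parental T6 library it passed, with an edgeR adjusted p of 0.0177, and the alternatives together spanned 0.0138 to 1. Without the second parental T6 library its log2 change was -2.66 (edgeR adjusted p = 1). The P2RX4 sgRNA, against an ion channel opened by ATP, had 8.04 and 32.9 CPM at T12 and 55.2 and 286 CPM at T6 (-3.21, edgeR adjusted p = 0.466), and its log2 change was -0.97 without the second parental T6 library. FZD3, a Wnt receptor of the Frizzled family, stood at the other end, with 97.8 and 124 CPM at T12 and 7.44 and 3.19 CPM at T6 (4.61, edgeR adjusted p = 0.41). The RMDN2 sgRNA had 236 and 26.4 CPM at T12 and 19.4 and 5.01 CPM at T6 (3.74, edgeR adjusted p = 0.456), and its log2 change was 1.41 without the first parental T12 library. Of these 4, DESeq2 called RGS21 (adjusted p = 0.0138), FZD3 (0.00104) and RMDN2 (0.0451).

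At T6, 38 members were lower and 5 higher in NMYC than in parental cells at an unadjusted p under 0.05, 2.26% against 3.59% of all sgRNAs. DESeq2 called 1 lower and 0 higher, with 0.256% of all sgRNAs called. The median member differed by -0.18 on the fitted log2 scale, and the median sgRNA by -0.03. Lowest by p were SFPQ, a splicing factor of nuclear paraspeckles, and TOMM7, part of the protein import channel of the mitochondrial outer membrane. The SFPQ sgRNA had 14.8 and 3.46 CPM in NMYC and 20.9 and 237 CPM in parental T6 cultures, and the TOMM7 sgRNA 6.16 and 3.88 CPM in NMYC and 34.2 and 141 CPM in parental cultures. In both, the second parental T6 library was far above the rest. Without it the fitted log2 difference was -1.14 for SFPQ and -2.71 for TOMM7, against -4.46 and -4.70 with it. On the higher side were TAS2R5, a bitter taste receptor, with 102 and 124 CPM in NMYC and 28.2 and 1.71 CPM in parental cultures, and HAMP, the iron hormone hepcidin, with 27.9 and 43.1 CPM in NMYC and 2.87 and 0 CPM in parental cultures. Without the first parental T6 library the difference was 5.35 for TAS2R5 and 11.60 for HAMP, against 2.90 and 4.61 with it. The remaining parental T6 library held 15 counts for TAS2R5 and 0 for HAMP, so these values are no bounds. All 4 had an edgeR adjusted p of 1, and DESeq2 called TOMM7 (adjusted p = 0.0195).

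At T12, 64 members were lower and 54 higher in NMYC than in parental cells at an unadjusted p under 0.05, 6.21% against 10.9% of all sgRNAs. DESeq2 called 37 lower and 31 higher, with 7.55% of all sgRNAs called. The median member differed by -0.18 and the median sgRNA by -0.06 on the fitted log2 scale. MSC (musculin), a transcriptional repressor of the basic helix-loop-helix family, had the smallest p on the lower side (edgeR adjusted p = 0.23). Its sgRNA had 0 and 0.123 CPM in NMYC and 37.8 and 60.2 CPM in parental T12 cultures. These are 2 counts in NMYC libraries and 1644 in parental ones, a ratio of 0.00138. Its 95% counting interval of 0.000167 to 0.00499 leaves out the spread between cultures. At T6 the order was the reverse, with 21.1 and 7.65 CPM in NMYC and 0.465 and 1.14 CPM in parental cultures. The other MSC sgRNAs had 35.9 and 28.9, and 11.9 and 2.57 CPM in the NMYC T12 cultures. In the parental T12 cultures they had 40.6 and 27.2, and 14.9 and 25.9 CPM. The EBF1 sgRNA, against a transcription factor of B cells, had 5.31 and 4.60 CPM in NMYC and 108 and 71.0 CPM in parental cultures (-4.23, edgeR adjusted p = 0.233). Its groups did not overlap, while the other EBF1 sgRNAs had 69.1 and 61.6, and 20.3 and 4.11 CPM in the NMYC T12 cultures. Their parental T12 levels were 11.4 and 25.2, and 63.3 and 18.3 CPM, so the first of these was higher in NMYC cells. Higher in NMYC cells by value were the sgRNAs against RGS21, with 45.0 and 68.8 CPM in NMYC cultures and 1.45 and 4.49 CPM in parental ones (edgeR adjusted p = 0.233), and TIGD1, with 44.0 and 48.6 CPM in NMYC cultures and 0.604 and 0.768 CPM in parental ones (edgeR adjusted p = 0.255). DESeq2 called all 4, with adjusted p of 9.9e-06 for MSC, 0.0011 for EBF1, 0.0408 for RGS21 and 0.000344 for TIGD1.

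The last contrast asked whether the change from T6 to T12 differed between the arms. At an unadjusted p under 0.05, 19 members had a negative difference and 41 a positive one, 3.16% against 6.89% of all sgRNAs, and DESeq2 called 6 lower and 5 higher with 1.65% of all sgRNAs called. In this fit the share of members at an unadjusted p under 0.05 was below that of all sgRNAs in each of the 5 contrasts. In the fit of all 10 libraries the members' share was above for parental T12 against T6 (6.58% against 6.44%) and for NMYC against parental at T6 (4.42% against 3.43%). That fit holds the T0 libraries that chose the members, so nothing is read from its shares. Without the first parental T6 library, which leaves 1 library in that group, the members' share was also above in the T6 contrast. RGS21 (7.46, edgeR adjusted p = 0.0972) and MCHR2, a receptor of melanin-concentrating hormone (12.07, edgeR adjusted p = 0.283), had the smallest p on the higher side. MSC (-13.01, edgeR adjusted p = 0.13) and FZD3 (-7.01, edgeR adjusted p = 0.203) had it on the lower side. RGS21 passed without the first parental T6 library (edgeR adjusted p = 0.00682, range 0.00682 to 1). Its difference was 4.58 without the second parental T6 library and 11.68 without the first NMYC T6 library, and passed in neither. MSC passed with all 10 libraries in the fit (edgeR adjusted p = 0.0279, range 2.5e-06 to 1, the lowest by DESeq2). Since that fit holds the T0 libraries that chose the members, the pass is not read as support. Over all sgRNAs it called 3 with a negative difference and 6 with a positive one. DESeq2 also called RGS21 (adjusted p = 0.0196), MCHR2 (0.000213) and FZD3 (0.000416). The fitted values of MSC and MCHR2 rest on groups with few counts and are no bounds.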

How the data were processed

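Genomic DNA of 10 libraries was amplified over the sgRNA cassette and sequenced, per the labels' protocols. The authors deposited raw counts per sgRNA, whole numbers without normalization, with MAGeCK named in the submitters' processing notes, and no version, trimming or sgRNA reference was given in these notes. All columns matched a sample by name (0 unmapped). The table lists 55849 sgRNAs, of the 65000 the labels name for the library. Levels are CPM of the whole column, with a pseudocount of 1 CPM for log2 changes. Totals ran from 8783512 to 18398571 counts.

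The 8 T6 and T12 libraries were fitted in R 4.3.3 by the quasi-likelihood method of edgeR 4.0.16 (TMM normalization, 4 group means, 4 residual degrees of freedom, a mean of at least 20 counts) and the Benjamini-Hochberg method over 52635 sgRNAs. T0 libraries were left out of the fit because they chose the members. DESeq2 1.42.0 was an alternative, as were other scalings, filters, a replicate block and leaving out each library. The fit was tested on simulated data with 200 changed sgRNAs.

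The labels' protocols describe replicate cultures kept from passage to passage, so equal numbers at T6 and T12 of an arm should mark a culture. Deviations of equal numbers from the group means correlated at -0.0104 in NMYC and 0.0665 in parental cells over the sgRNAs in the fit. Across arms a number is only a number.

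Members and gene lists were chosen with earlier results of these data known. Named sgRNAs follow a rule: the 5 highest at T0, up to 5 per direction and contrast past 0.05 or otherwise the 2 with the smallest p, the 8 with the lowest maximum and the 8 with the highest minimum later, 3 on each side of the threshold, genes with all sgRNAs chosen, a fixed set, and the 3 lowest of each class of lists (for growth-restraining genes also the 3 highest). Some genes that this rule names are not reported here. Gene pairs, other sgRNAs of named genes and HES1 were named after their values were seen. Of 1845 symbols 1720 matched a current RefSeq symbol and 116 a synonym (1826 protein coding).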

Additional observations from a re-analysis of the deposited data

Results flagged for a closer look

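For 7 sgRNAs named among the T12 against T6 contrasts, both NMYC cultures moved one way and both parental cultures the other. The difference between the arms' log2 changes (NMYC minus parental, edgeR) was 7.46 for RGS21, 12.07 for MCHR2, 4.13 for HEATR5B and 4.61 for SH2B2. With 1 library left out the RGS21 value ran from 4.58 (without the second parental T6 library) to 11.68 (without the first NMYC T6 library). The difference was -13.01 for MSC, -7.01 for FZD3 and -5.50 for SCAF4. The test of that difference did not pass for any of them, with edgeR adjusted p between 0.0972 and 0.428. All 7 were picked for small p in these contrasts, so opposite directions were favoured by the choice.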

How the results depend on the processing

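The number of sgRNAs chosen depended on the scale: 2935 with TMM-adjusted library sizes, among them all 1904, 3103 at a threshold of 30 CPM and 776 at 60 CPM. The median change from T0 kept its sign under all scalings, pseudocounts and left-out libraries. Scaled to TMM-adjusted sizes (added after seeing the data), NMYC cultures gave -1.80 at T6 and -1.62 at T12, and parental cultures -1.89 and -1.64, so the T6 value was the lower one in both arms, and not only in parental cells. There the median gene-targeting sgRNA lay between -0.19 and 0.18, and the members lay -2.18 to -1.33 from it, against -1.95 to -1.26 in CPM. A pseudocount of 5 CPM gave -1.07 at NMYC T6 and -1.17 at parental T12, and scaling to non-targeting sgRNAs -1.28 and -1.37. Leaving out 1 culture gave -1.17 to -1.14 at NMYC T6, -1.48 to -1.25 at NMYC T12, -1.63 to -1.11 at parental T6 and -1.29 to -1.25 at parental T12. DESeq2 called 1 member in NMYC T12 against T6 (0.652% of all sgRNAs called) and 12 in parental T12 against T6 (2.07%). Between the arms it called 1 at T6 (0.256%) and 68 at T12 (7.55%), and in the difference of changes 11 (1.65%). For that difference the fit of all 10 libraries, which holds the T0 libraries that chose the members, gave 1. Over all sgRNAs the same fit called 3 lower and 6 higher there. A fit with 1 library left out leaves 1 library in a group, so its counts of calls are not set beside these. With the replicate block (the culture within an arm, or the number between arms) 0 members passed in all 5 contrasts. Other size factors, filters and fits of 4 libraries also gave 0. Of the 20 named changes, which did not pass in edgeR's fit of 8 libraries, 13 passed by DESeq2, 2 without the first parental T6 library (both RGS21) and 1 in the fit of all 10 libraries (MSC). The cause of these differences was not tested.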
